A study of Mus musculus with 4 samples.

Results

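The genes described here are 9 members of the B7 costimulatory and checkpoint system: Cd80, Cd86, Icosl, Cd274, Pdcd1lg2 and Cd276 of the B7 family itself, the receptor genes Btla and Tnfrsf14, and the activation marker Cd83. They were chosen by name, with earlier results of these data known. Every transcript cluster that the platform's gene table pairs only with one of these symbols was used. This gave 10 clusters, of 21789 tested in all, since Cd80 has a pair of clusters and each other gene has 1. The study hybridised 4 whole-transcript arrays with RNA of CH12.F3, a mouse B cell lymphoma line used in culture for switching from IgM to IgA. There were 2 arrays of Mbd4 KO cells and 2 of control cells. Cells of both groups had grown in RPMI with 6% fetal calf serum and had been activated for 24 hours with CD40L (25% by volume), TGFb (0.2 ng/ml) and IL4 (5 ng/ml). No array of unactivated cells is part of the design, so every level below is that of activated cells. The product of Mbd4 is a repair enzyme that recognises methylated CpG sites and cuts out thymine or uracil opposite guanine. The labels give neither the Mbd4 allele nor how the control cells were made. The design text calls the samples independent without naming separate cultures or clones. The p-values thus cover only array-to-array spread, and that spread may be technical.

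T cells need a signal from the antigen receptor and a further signal from a neighbouring cell, and the B7 proteins on B cells, dendritic cells and macrophages give that further signal. CD80 and CD86 bind the stimulating receptor CD28 and the inhibitory receptor CTLA-4, ICOS ligand binds ICOS, and PD-L1 (Cd274) and PD-L2 (Pdcd1lg2) bind the inhibitory receptor PD-1. BTLA is an inhibitory receptor of B and T cells whose ligand is HVEM, the product of Tnfrsf14. CD40 signals and IL-4, both present in this culture, are known to raise CD80 and CD86 on B cells.

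Mbd4 itself read 6.47 and 6.49 in the Mbd4 KO arrays, against 8.74 and 8.77 in the control arrays (log2). Its difference, Mbd4 KO minus control, was -2.28 ± 0.066 (log2, SE; limma adjusted p = 0.0002), and the arrays ranked as labelled. Where its probes lie relative to the deleted part is not stated in the labels. Of 7 B cell markers listed, 6 were measured, with values from 10.37 to 12.68 (log2) on the 4 arrays and none past the threshold. T cell markers lay below 7.15 (log2), the median of all gene values, on every array for 5 of 6 genes, with Cd28 at 11.08 to 11.35 the exception. Of 7 macrophage or dendritic cell markers, 5 lay below it on every array, and Adgre1, an adhesion receptor gene typical of macrophages, was the 1 that fell (6.58 and 6.67 in Mbd4 KO cells, 7.69 and 7.68 in control cells; limma adjusted p = 0.00311). The differences of these 7 had a median of -0.12 (log2), and 2 were above 0, Lyz2 (0.24) and Cd14 (0.09). Itgax differed by -0.52 (limma adjusted p = 0.0592). Summed log2 values of the 7 were 42.54 and 42.75 in Mbd4 KO cells and 44.16 and 44.34 in control cells. Most of that gap came from Adgre1 (-1.06) and Itgax, as Csf1r, Flt3 and Mrc1 differed by only -0.07, -0.12 and -0.16. The part of these markers in the results below was not tested. In bulk RNA, fewer cells that express a gene and less of its RNA per cell cannot be told apart. Fibroblast markers (5 measured) had 0 past the threshold.

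No member passed limma's test. The chromosome 16 genes Cd80, Cd86 and Btla were lower in Mbd4 KO cells, by 0.34, 0.27 and 0.09 (log2), while the 6 members on other chromosomes were higher, by 0.08 to 0.36. Of the 10 clusters, 0 had an adjusted p under 0.05 (limma, two-sided, Benjamini-Hochberg over all 21789 clusters), against 1.39% of all clusters (0.431% higher and 0.955% lower), and a count of 0 among so few does not stand apart from that share. At an unadjusted p under 0.05 there were 5 of 10, against 13.8% of all clusters. Since the members were chosen with earlier results of these data known, this comparison and the next ones are descriptions and test no enrichment. In all 10 the values of Mbd4 KO and control arrays were separate, against 45.0% of all clusters. The members higher without overlap were 6 (26.7% of all clusters) and those lower without overlap 4 (18.3%). All 4 lie on chromosome 16, where 53.1% of clusters were lower without overlap, and a pair of them is of Cd80. The smallest fold among the clusters that passed was 1.34, and the largest member difference was 1.28-fold. A missed threshold therefore does not show that a member did not differ.

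**Figure D1:**
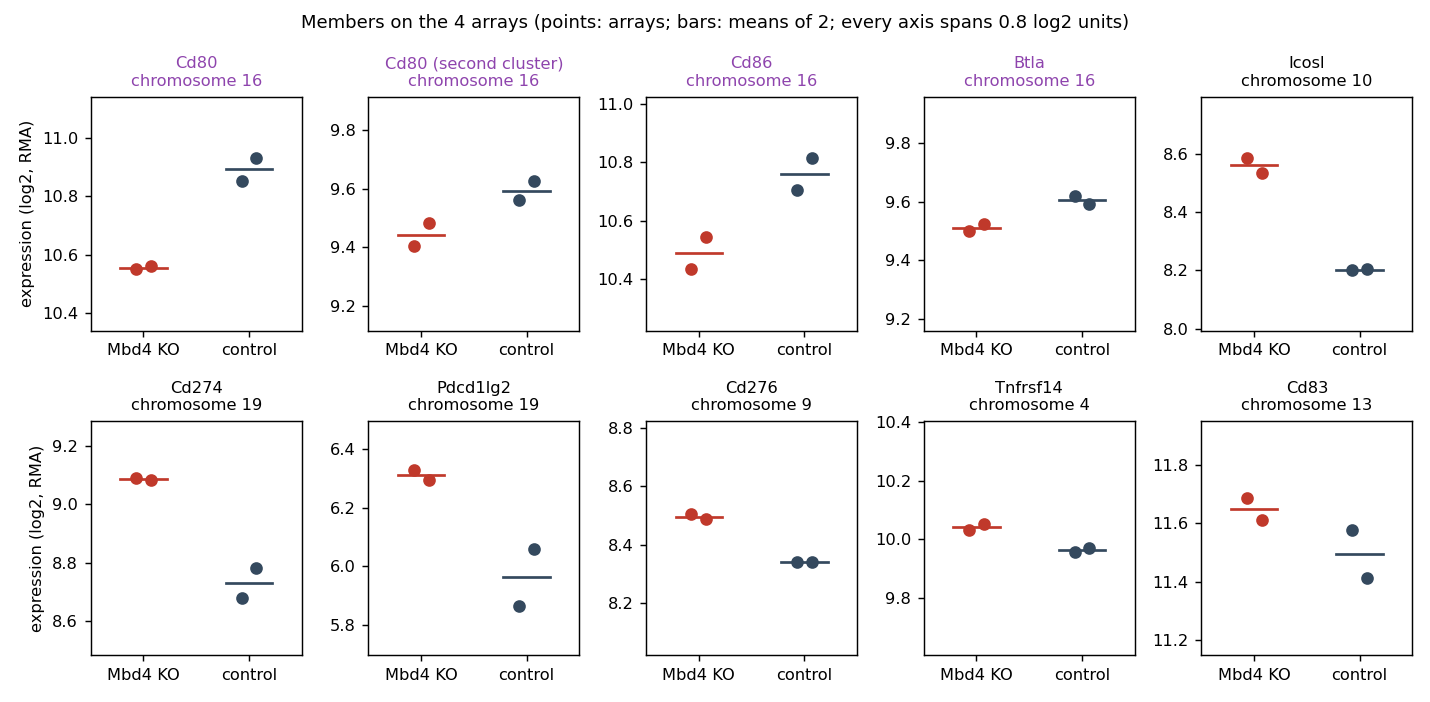
Expression (log2, RMA) of the 10 member clusters on each of the 4 arrays, Mbd4 KO left of control, with means of 2 as bars and equal axis spans. In all 10 panels the points of the groups do not overlap: Mbd4 KO lies below control in the 4 chromosome 16 panels and above it in the other 6.

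The promoters of Cd80, Icosl, Cd274 and Pdcd1lg2 are shown because these were the 4 members with the largest differences, 1 lower and 3 higher in Mbd4 KO cells. Each is 300 bases of RefSeq sequence (GRCm38.p6), from 250 bases before to 50 after the gene's start, 5′ to 3′ on the gene's strand, which is the plus strand for all 4. They lie at chr16:38458683-38458982, chr10:78069118-78069417, chr19:29367188-29367487 and chr19:29410669-29410968. Capitals mark matches, on either strand, to the frame of NF-kappaB sites (GGG and CC with any 5 bases between) or to the spacing that STAT6 prefers (TTC and GAA with any 4 bases between).
Cd80 promoter: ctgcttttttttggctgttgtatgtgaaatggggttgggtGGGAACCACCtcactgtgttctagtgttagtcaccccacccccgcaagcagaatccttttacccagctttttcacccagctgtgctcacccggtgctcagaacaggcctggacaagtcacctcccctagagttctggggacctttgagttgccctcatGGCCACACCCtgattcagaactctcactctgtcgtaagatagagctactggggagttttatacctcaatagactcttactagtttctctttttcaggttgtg
Icosl promoter: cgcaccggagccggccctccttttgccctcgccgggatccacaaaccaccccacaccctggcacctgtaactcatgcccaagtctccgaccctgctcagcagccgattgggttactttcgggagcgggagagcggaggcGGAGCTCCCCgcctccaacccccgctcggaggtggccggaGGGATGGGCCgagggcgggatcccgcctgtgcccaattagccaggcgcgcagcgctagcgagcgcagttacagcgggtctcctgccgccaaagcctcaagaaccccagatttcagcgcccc
Cd274 promoter: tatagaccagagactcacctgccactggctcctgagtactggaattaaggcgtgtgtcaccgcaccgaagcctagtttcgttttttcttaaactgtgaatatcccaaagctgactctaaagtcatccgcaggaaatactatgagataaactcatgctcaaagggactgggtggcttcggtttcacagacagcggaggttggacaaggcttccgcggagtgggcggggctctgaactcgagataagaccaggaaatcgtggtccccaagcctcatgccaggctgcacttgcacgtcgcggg
Pdcd1lg2 promoter: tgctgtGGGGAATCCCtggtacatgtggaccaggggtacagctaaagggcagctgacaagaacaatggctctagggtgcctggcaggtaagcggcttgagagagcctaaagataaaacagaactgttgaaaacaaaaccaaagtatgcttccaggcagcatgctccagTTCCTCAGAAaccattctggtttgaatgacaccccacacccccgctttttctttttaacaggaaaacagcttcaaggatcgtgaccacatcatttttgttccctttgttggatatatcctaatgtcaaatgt
The Cd80 window held 2 matches to the NF-kappaB frame, the Icosl window 2, the Pdcd1lg2 window 1 and the Cd274 window 0. That frame is loose, and 50.8% of the 32851 promoters in the RefSeq table hold at least 1 match. The STAT6 spacing was found in the Pdcd1lg2 window, at bases 169 to 178, and 6.95% of all promoters hold it. No match to the spacing of other STAT factors (TTC and GAA with any 3 bases between) was found in these windows, and 8.30% of all promoters hold one. None of the matches printed overlaps another. CG dinucleotides, the sites that Mbd4 binds when methylated, numbered 3 in the Cd80 window, 26 in Icosl, 15 in Cd274 and 3 in Pdcd1lg2, against a median of 7 over all promoters. Among the 3 members with the largest positive differences, the CG count ran from 3 to 26. Methylation was not measured, and a link between CG count and the differences was not tested. The table held promoters of 7 of the 9 members, the others being Cd86 and Cd83. Btla had 0 matches and 5 CG, Tnfrsf14 had 1 match to the NF-kappaB frame and 2 CG, and Cd276 had 9 such matches, some overlapping each other, and 39 CG. A match is a run of letters and not a measured binding site.

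Among the ligands of CD28 and CTLA-4, Cd80 read 10.55 and 10.56 (log2) in the Mbd4 KO arrays, against 10.85 and 10.93 in the control arrays. Both Mbd4 KO values lay under both control values, with a gap of 0.29. The difference was -0.34 ± 0.069 (log2, SE), with a 95% interval from -0.50 to -0.17 and a limma adjusted p of 0.101. The second cluster of Cd80, for which the table lists no RefSeq transcript, read 9.40 and 9.48 in Mbd4 KO cells and 9.56 and 9.63 in control cells. It was also lower without overlap, by less (-0.15 ± 0.071, interval -0.32 to 0.02, adjusted p = 0.43). Cd86, which on B cells is made earlier after activation than Cd80, read 10.44 and 10.54 in Mbd4 KO cells, against 10.71 and 10.81 in control cells. The groups did not overlap, with a gap of 0.16. Its difference was -0.27 ± 0.079 (log2, SE; interval -0.46 to -0.08; limma adjusted p = 0.219).

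Icosl, whose product engages ICOS on helper T cells, read 8.59 and 8.53 in Mbd4 KO cells and 8.20 and 8.20 in control cells (log2). The gap between the groups, 0.33, was the widest of the 10 clusters. Its difference of 0.36 ± 0.067 (log2, SE; interval 0.19 to 0.52) had the lowest limma adjusted p of the members, 0.0835.

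The ligands of PD-1 are neighbours on chromosome 19 with 0 measured genes between them, and both were higher in Mbd4 KO cells. Cd274, which encodes PD-L1, read 9.09 and 9.08 in Mbd4 KO cells, against 8.68 and 8.78 in control cells (log2). The difference was 0.36 ± 0.071 (log2, SE; interval 0.18 to 0.53; limma adjusted p = 0.0971). Pdcd1lg2, which encodes PD-L2, read 6.33 and 6.30 in Mbd4 KO cells, against 5.87 and 6.06 in control cells. Its groups did not overlap either, but all 4 values lay under 7.15, the median of all gene values, and signal over background could not be judged. Its difference was 0.35 ± 0.086 (log2, SE; interval 0.14 to 0.56; adjusted p = 0.157). Cd276, which encodes B7-H3, a family member whose receptor is not settled, read 8.51 and 8.49 in Mbd4 KO cells and 8.34 and 8.34 in control cells. Here the difference was smaller, 0.15 ± 0.065 (interval -0.0045 to 0.31; adjusted p = 0.374).

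The genes of the BTLA and HVEM pair differed least and in opposite directions. Btla read 9.50 and 9.52 in Mbd4 KO cells, against 9.62 and 9.59 in control cells (log2), a difference of -0.09 ± 0.066 (interval -0.26 to 0.07; limma adjusted p = 0.591). Tnfrsf14, the HVEM gene, read 10.03 and 10.05 in Mbd4 KO cells, against 9.96 and 9.97 in control cells. Its difference was 0.08 ± 0.065 (interval -0.08 to 0.24; adjusted p = 0.658). Both intervals include 0 and bound the difference of either gene to under 0.26 in size. Cd83, a membrane protein of activated B cells and dendritic cells that stabilises CD86 and MHC class II on the surface, read 11.69 and 11.61 in Mbd4 KO cells, against 11.58 and 11.41 in control cells. The gap of 0.03 was the narrowest of the 10, and the difference was 0.15 ± 0.083 (interval -0.05 to 0.36; adjusted p = 0.49).

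**Figure D2:**
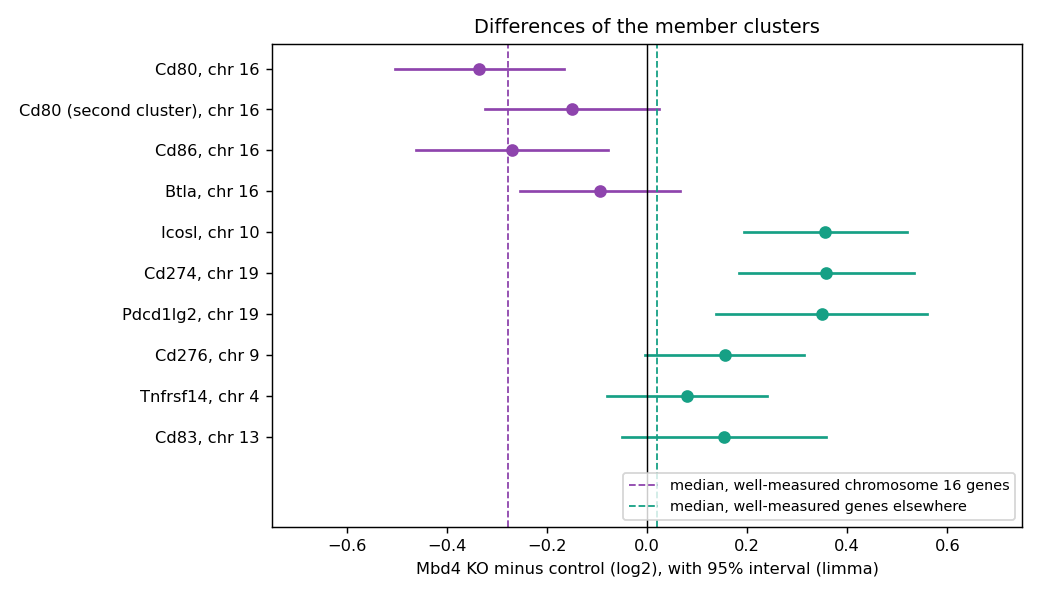
Mbd4 KO minus control (log2) of each member cluster with limma's 95% interval, chromosome 16 members above the others. The dashed lines are the medians of well-measured genes on chromosome 16 (-0.28) and elsewhere (0.02). Cd86 and the brighter Cd80 cluster lie close to the chromosome 16 line, while the second Cd80 cluster lies nearer 0. Icosl, Cd274 and Pdcd1lg2 have intervals wholly above 0.

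Calls for some members changed with the setting of the fit. With an intensity trend in the prior, 4 of the 10 clusters passed, against 5.14% of all clusters: Cd80 fell (adjusted p = 0.00254), Cd86 fell (0.0212), Cd274 rose (0.012) and Icosl rose (0.0171). Without the dimmest 30% of clusters 3 passed, against 4.20% of the 15252 clusters then tested, namely Cd80 (0.041), Cd274 (0.0393) and Icosl (0.0321). Without either change, an adjusted p under 0.1 was met by 2, Icosl and Cd274, against 2.72% of all clusters.

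The split by chromosome was set against the other genes there. Well-measured genes, those whose mean exceeded the median of all gene values, were lower in Mbd4 KO cells for 291 of 316 on chromosome 16 (92.1%), with a median difference of -0.28 (log2) and quartiles of -0.36 and -0.18. With dim genes included, the chromosome's median was -0.11. On the other chromosomes 4118 of 9644 (42.7%) were lower, with a median of 0.02 and quartiles of -0.06 and 0.09. Of all 704 chromosome 16 clusters, 53.1% were lower without overlap, as were all 4 member clusters there, and 5.68% passed as lower. Cd86 differed from the chromosome 16 median by 0.01 (log2), Cd80 by -0.06 and Btla by 0.18. Among the other 315 well-measured genes of the chromosome, 99 were lower than Cd80, 166 were lower than Cd86 and 268 were lower than Btla. Thus Cd86 and the brighter Cd80 cluster lay inside the middle range of their chromosome and Btla stood above its upper quartile. The second Cd80 cluster, which was not ranked, differed by -0.15 and also lay above that quartile. The distance of Btla from the others was not tested, since it would need a test over chosen genes.

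**Figure D3:**
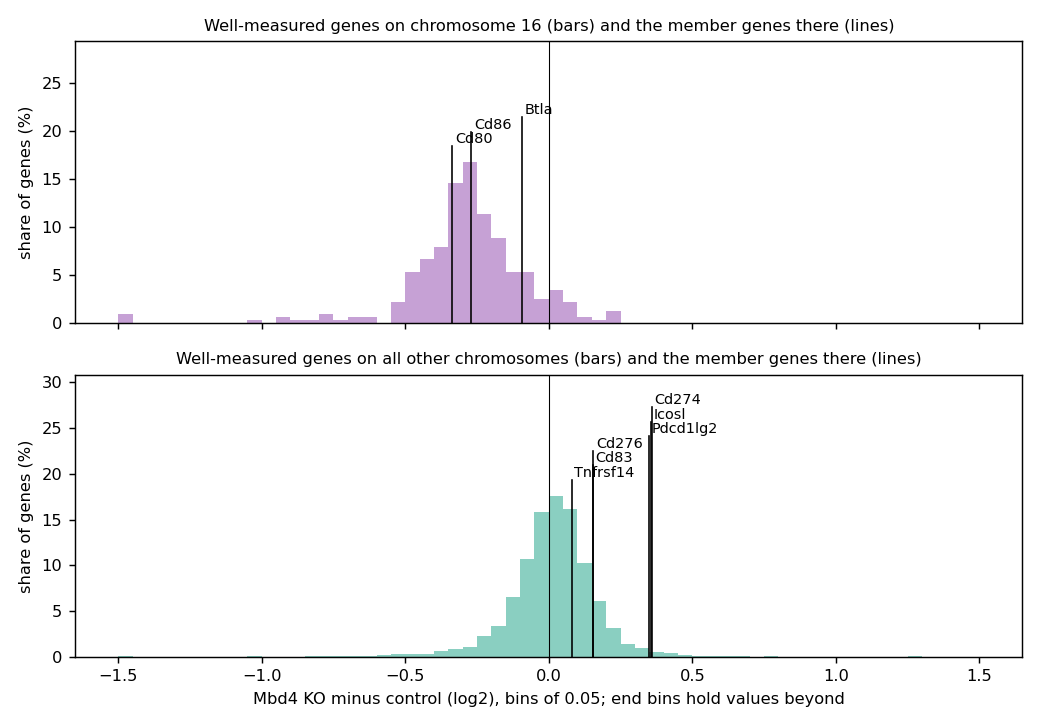
Share of well-measured genes (%) by Mbd4 KO minus control (log2) on chromosome 16 (316 genes, top) and elsewhere (9644 genes, bottom), with the member genes as lines. Cd80 (brighter cluster) and Cd86 fall in the bulk of chromosome 16. Icosl, Cd274 and Pdcd1lg2, the last itself not well measured, fall in the upper tail of the lower panel.

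The members elsewhere were set against their own chromosomes in the same way. Icosl exceeded 478 of 489 other well-measured genes on chromosome 10, whose median difference was 0.02 (log2). Cd274 exceeded 349 of 353 on chromosome 19, again around a median of 0.02. Pdcd1lg2, itself too dim to count as well measured, exceeded 349 of 354 there. Cd276 exceeded 492 of 561 on chromosome 9, Cd83 exceeded 328 of 378 on chromosome 13 and Tnfrsf14 exceeded 445 of 640 on chromosome 4. The medians were -0.27 over the 3 chromosome 16 members and 0.25 over the 6 others, 0.52 apart, beside a median of 0.02 over all tested clusters. With 1 array left out that contrast, chromosome 16 members minus the others, ran from -0.60 to -0.45. It is a description of chosen genes and carries no test.

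Along chromosome 16 the order is Cd86, Cd80 and Btla, with 22 measured genes between the first pair and 36 between Cd80 and Btla. Between Cd86 and Btla lie 29 other well-measured genes, all 29 of which were lower in Mbd4 KO cells, with differences from -0.88 to -0.08 and a median of -0.32 (log2). Of them 6 fell past limma's threshold and 0 rose. Of all 704 chromosome 16 clusters, dim ones included, 5.68% fell and 0.142% rose past it. Whether this stretch differs from other well-measured genes of the chromosome was not tested. Next to Cd80, the mitochondrial assembly gene Timmdc1 differed by -0.35 (adjusted p = 0.0857) and the glycosyltransferase gene Poglut1 by -0.36 (0.0828), values close to that of Cd80. On its other side the dim genes Pla1a and Popdc2 differed by -0.14 (0.589) and -0.10 (0.609). Next to Cd86, the calcium-sensing receptor gene Casr differed by 0.10 (0.664) and the dim Ildr1 by 0.07 (0.732). Beyond them the dim Stfa3 differed by -0.07 (0.805), and the peptide transporter gene Slc15a2 fell by 0.74 (limma adjusted p = 0.0209). Next to Btla, the autophagy gene Atg3 fell by 0.53 (limma adjusted p = 0.0326) and Cd200, which encodes a ligand that restrains myeloid cells, differed by -0.25 (0.221). Slc35a5 differed by -0.33 (0.258) and the dim Gm609 by -0.01 (0.987). The genes beside Cd86 and Btla thus spanned a wider range than the 3 members. Beside the Cd274 and Pdcd1lg2 pair on chromosome 19, Plgrkt differed by 0.23 (0.353) and Ermp1 by 0.11 (0.573). Ric1 differed by 0.05 (0.824) and the dim Rln1 by 0.02 (0.964), and each of these neighbours differed by less than the pair.

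**Figure D4:**
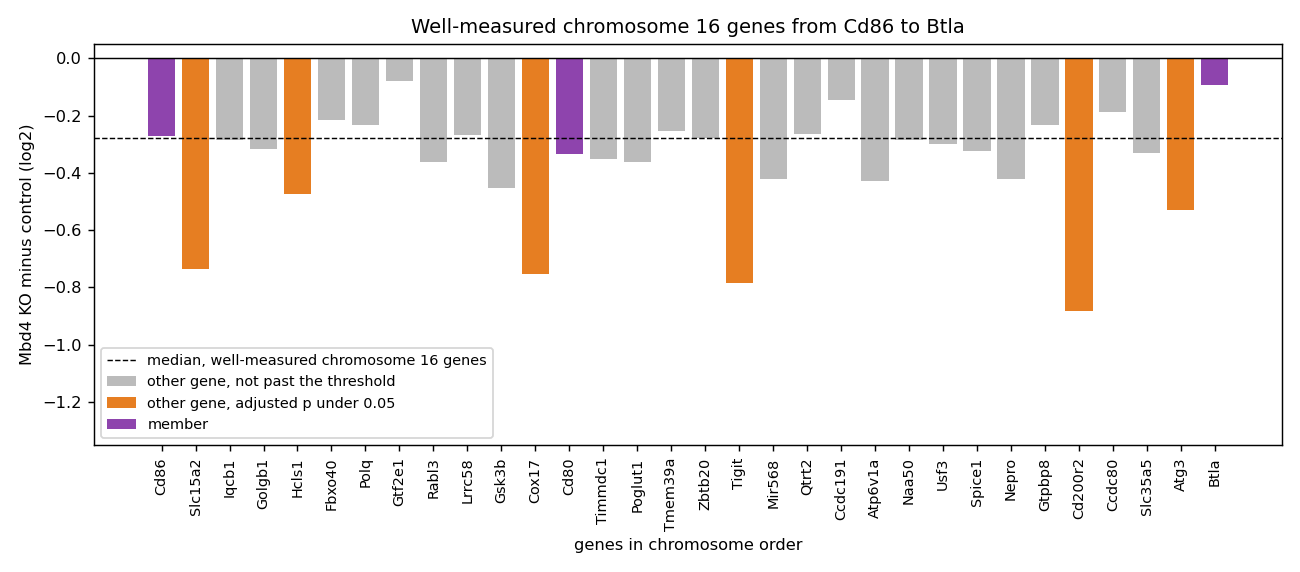
Mbd4 KO minus control (log2) of the well-measured chromosome 16 genes from Cd86 to Btla, in chromosome order, with the chromosome's median dashed. All bars lie below 0. Btla is among the shortest, and the 6 bars past the threshold are longer than those of the members.

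The receptors and partners of the members were measured in the same RNA. Of 8 such genes, 1 fell and 0 rose past limma's threshold, beside 0.955% lower and 0.431% higher among all clusters. Their median was 0.11 (log2), beside 0.02 over all tested clusters. Ctla4, the inhibitory receptor for CD80 and CD86, read 8.39 and 8.31 in Mbd4 KO cells and 8.81 and 8.81 in control cells. It fell by 0.46 (SE 0.069; limma adjusted p = 0.045). The difference stayed between -0.50 and -0.42 with any 1 array left out, a fit in which the lone array of a group is assumed to vary like the other group, but the adjusted p was then 0.179 to 0.226. The call was also lost with quantile normalization (0.0611), arrays centred on genes outside chromosome 16 (0.0594) or all clusters of the table tested (0.191). Pdcd1, the PD-1 gene, differed by 0.30 (SE 0.084; adjusted p = 0.199). Of 7 other B7 and butyrophilin genes measured, 0 passed, and the median was -0.13. The largest differences were in Btn2a2, a butyrophilin that restrains T cells (-0.52, adjusted p = 0.167), and Vsir, the VISTA checkpoint gene (-0.31, adjusted p = 0.181).

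Costimulatory genes of the TNF family held 2 rises and 0 falls among 12 measured, beside 0.431% higher and 0.955% lower among all clusters, with a median of 0.05 (log2). Tnfrsf18, which encodes the receptor GITR, read 8.70 and 8.85 in Mbd4 KO cells, against 7.66 and 7.73 in control cells. It rose by 1.07 ± 0.081 (log2, SE; 2.10-fold; limma adjusted p = 0.00499), and passed whichever array was left out (0.0306 to 0.0448), though not with all clusters of the table tested (0.0866). Tnfrsf4, the OX40 gene of the same receptor family, differed by -0.03 (adjusted p = 0.916). Tnfrsf8, the CD30 gene, read 9.24 and 9.19 in Mbd4 KO cells, against 8.73 and 8.76 in control cells. It rose by 0.47 (SE 0.067; limma adjusted p = 0.0418). With any 1 array left out the difference was 0.44 to 0.50 and the adjusted p 0.181 to 0.213. The call was also lost with arrays centred outside chromosome 16 (0.058) or all clusters tested (0.187), where the differences were 0.46 and 0.47. All 3, like Tnfrsf14 with its difference of 0.08, lie on chromosome 4. Tnfsf8 (-0.23, limma adjusted p = 0.293) and Tnfrsf9 (0.06, adjusted p = 0.785), also in the list, lie there too.

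Genes that set how long CD86, CD83 and PD-L1 stay on the membrane had 0 of 6 past the threshold and a median of -0.0042 (log2). The largest differences were in Marchf1, a ubiquitin ligase that removes CD86 (-0.10, limma adjusted p = 0.684), and Cmtm6, which protects PD-L1 from degradation (0.08, adjusted p = 0.657). Marchf1 lay under 7.15, the median of all gene values, on all 4 arrays. A dimmer second cluster of Cmtm4, a relative of Cmtm6, differed by 0.29 (adjusted p = 0.261), against 0.06 in the first. Transcription factors of the NF-kappaB, STAT, IRF and B lineage groups had 0 of 15 measured past the threshold, with a median of -0.04. Stat3 differed by -0.32 (adjusted p = 0.109) and Myc by 0.24 (adjusted p = 0.219). Stat6, which carries the IL-4 signal, differed by -0.04 (adjusted p = 0.831), and Rel, an NF-kappaB subunit of activated B cells, by -0.02 (adjusted p = 0.93).

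**Figure D5:**
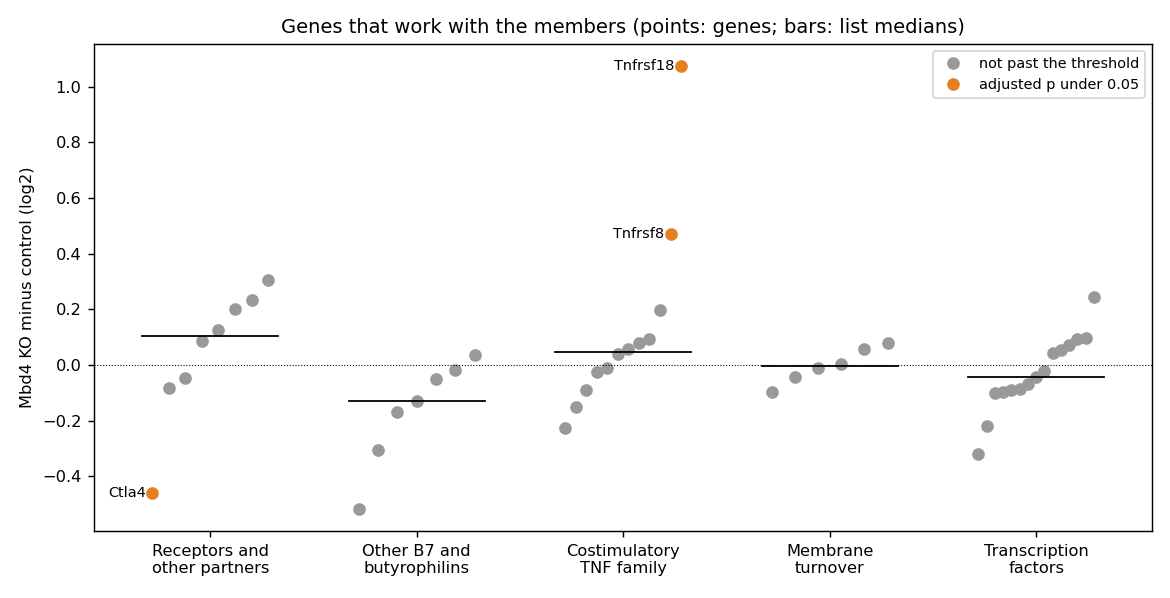
Mbd4 KO minus control (log2) of the genes in 5 lists around the members, 1 point per gene with list medians as bars. Tnfrsf18 and Tnfrsf8 rose and Ctla4 fell, and the other points lie between -0.52 and 0.30.

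Cd274 had the largest absolute difference of the members, and the genes nearest to it in pattern were sought over the 4 arrays, by Euclidean distance between gene-centred log2 values. They were Rtkn (distance 0.012, difference 0.36), the sterol synthesis gene Msmo1 (0.016, difference 0.37) and Extl1, of the exostosin family (0.018, difference 0.35). The search covered 19920 genes over 4 arrays, and none of the 3 passed limma's test (adjusted p = 0.0872, 0.0899 and 0.101).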

How the data were processed

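The authors deposited 1 log2 value for each transcript cluster on each array. The submitters' processing notes name RMA, which subtracts background, equalises the probe distributions of the arrays and combines a cluster's probes. No version or setting is named there. No raw intensity was used, so signal over background could not be judged for single clusters. The number of arrays limits the precision. The median SD between arrays was 0.061 in Mbd4 KO cells and 0.0585 in control cells.

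Of 35556 clusters, 21789 had exactly 1 symbol in the platform's gene table and were tested, 1621 had several and 12146 had none. Symbols and chromosomes were updated through RefSeq's GRCm38.p6 table, by Entrez ID for 21695 clusters and by symbol or synonym for 91, and 3 found no chromosome. The array's build is not given, so the table was used only for names and order. Mbd4 KO and control arrays were compared by limma's lmFit and eBayes (limma 3.58.1, R 4.3.3). P-values were Benjamini-Hochberg adjusted over every tested cluster, and 0.05 was the threshold. Intervals are limma's 95% intervals. The procedure was tested on simulated data.

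Where a gene had several clusters, the one with the highest mean stood for it in lists and chromosome medians. Genes named beside the members were every passing gene and the 2 largest differences of each list, and the nearest measured neighbours. Tnfrsf4, Tnfrsf9, Tnfsf8, Stat6, Rel, Cd28, Lyz2 and Cd14 were named after their values were seen. The members and lists were chosen with earlier results of these data known. Listed genes without a cluster of their own, such as Nfkb1 and Hhla2, were not analysed here. Figures were drawn with matplotlib 3.10.9.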

Additional observations from a re-analysis of the deposited data

How the results depend on the processing

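No alternative turned the direction of any member cluster, but only new normalization or centring could have done so. Groups without overlap keep their direction when 1 array is left out, and the remaining settings leave the differences of the clusters as they are. The count of tested clusters past the threshold, 302, became 1121 with an intensity trend, 640 without the dimmest 30% of clusters, 593 at an adjusted p of 0.1, 159 with the replicate block, 22 when all clusters of the table were tested, and 65 to 75 with any 1 array left out. The count of member clusters, 0, became 4 with the trend, 3 without the dimmest 30% and 2 at an adjusted p of 0.1, and was 0 under the other 11 alternatives. The trend and the dim filter added calls for Cd80 (-0.34, adjusted p = 0.00254 and 0.041), Icosl (0.36, 0.0171 and 0.0321) and Cd274 (0.36, 0.012 and 0.0393), and the trend for Cd86 (-0.27, 0.0212). The titles share replicate numbers, but same-numbered arrays deviated together only weakly (r = 0.083 across clusters), so the numbers were not taken to pair the arrays. With the replicate block 0 members passed, and Ctla4 and Tnfrsf8 lost their calls (adjusted p = 0.084 for both). Both also lost them with arrays centred on genes outside chromosome 16 (0.0594 and 0.058) and with all clusters tested (0.191 and 0.187), as did Tnfrsf18 with all clusters (0.0866). The chromosome 16 members' median lay below that of the others (difference -0.52), and this ran from -0.60 to -0.45 with 1 array left out. The median of chromosome 16 genes ran from -0.30 to -0.25 with 1 array left out, and was -0.11 when dim genes were kept. The causes of these shifts were not tested.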

Other observations

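The stretch of chromosome 16 between Cd86 and Btla also encodes other immune receptors, named here after their values were seen. Tigit, a checkpoint receptor of T and NK cells that binds the poliovirus receptor, read 10.01 and 10.05 (log2) in Mbd4 KO cells, against 10.86 and 10.77 in control cells. It fell by 0.79 (log2) with an SE of 0.071 (limma adjusted p = 0.00903). Cd200r2, of the CD200 receptor family, read 7.89 and 7.78 (log2) in Mbd4 KO cells, against 8.74 and 8.70 in control cells. It fell by 0.88 (SE 0.074; limma adjusted p = 0.00745). Both differences were larger in size than the chromosome's median of -0.28 and than those of Cd80, Cd86 and Btla, and the difference between these genes was not tested.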
